A study of Mus musculus with 6 samples.

Results

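The wild-type testis transcriptome at 12 days post-partum was described from 3 of the 6 RNA-seq libraries of the series, chosen by their wild-type label alone and not by any measured value. Each came from the whole testes of a C57BL/6J mouse aged 12 days with the genotype Ankrd31+/+, and the libraries were made from total RNA with a strand-specific kit. The other 3 libraries, from homozygous Ankrd31 mutants, were not analysed here. The design text gives 3 mice for the wild-type group, so the replicates are separate animals. The values are read counts per gene, and the libraries held 21945226, 22706296 and 21014060 counts in replicates 1, 2 and 3.

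The testis contains seminiferous tubules, in which Sertoli cells enclose the germ cells and peritubular myoid cells form the outer wall, and an interstitium with Leydig cells, vessels, macrophages and fibroblasts. In the juvenile mouse the first germ cells move together from mitotic spermatogonia into meiosis, and haploid spermatids appear only later. In meiotic prophase the chromosomes form an axis, are cut by SPO11, repair the breaks by recombination and are joined lengthwise by the synaptonemal complex. In bulk RNA a lower level may mean fewer cells of a type or less RNA per cell, and these cannot be told apart.

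A level is given either as CPM, the counts of a gene per 1000000 counts of its library, or as TPM, the counts per kb of summed exon length scaled to sum to 1000000 per library. CPM serves to compare a gene between libraries and TPM to compare genes with each other. Of 49671 gene rows, 15543 had at least 1 CPM in all 3 libraries, among them 13398 of the 21811 protein-coding rows (61.4%), and 20722 rows had no count in any wild-type library. The 3 libraries were alike in this respect, with 16192, 16063 and 16105 rows at 1 CPM or more. Counts were spread over many genes: the 100 highest by mean CPM held 10.4% ± 0.23 (SD, n = 3) of all counts, and 1757 genes on average were needed to reach 50% of a library.

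The gene with the most counts was Gm42418, annotated as a long noncoding RNA at chr17:39846958-39848788 (mm10, plus strand), with 6498, 7053 and 7915 CPM. RefSeq places a sequence related to 18S ribosomal RNA, Rn18s-rs5, over most of that interval (chr17:39846354-39848202). On the opposite strand CT010467.1, an rRNA row that spans the whole of Gm42418, had 96, 91 and 51 counts, against 142599, 160144 and 166323 for Gm42418. Counts at this locus therefore lay almost entirely on 1 strand. Mitochondrial mRNAs followed, led by mt-Co1, a subunit of cytochrome c oxidase, with 4227, 5543 and 5422 CPM. The first nuclear protein-coding gene was Clu, which encodes the secreted chaperone clusterin, a major Sertoli cell product, with 4159, 4173 and 3781 CPM, at chr14:65968483-65981548.

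Among the 20 genes with the highest mean CPM, several others are linked to Sertoli cells or to protein synthesis and folding. Aard, known for its expression in Sertoli cells, had 1303, 1538 and 1380 CPM. Ctsl, which encodes the protease cathepsin L, had 1581, 1673 and 1413 CPM. Sparc, a secreted matrix protein, had 2076, 2203 and 2003 CPM. Each of these differed by less than 1.2-fold between the highest and lowest library. The chaperone genes Hsp90ab1, Hsp90b1 and Hspa5, the translation genes Eef2, Eef1a1 and Eif4g2, the nucleolar gene Ncl and the actin gene Actb were in the same set. Hspa5 varied most of the 20, with 1709, 1071 and 1376 CPM, a ratio of 1.6 between its highest and lowest library.

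Ranking per length changed the picture: only 34 of the 100 genes highest by CPM were also among the 100 highest by TPM. The median summed exon length was 5322 bases in the first set and 1091 bases in the second. No pseudogene was among the 100 highest by CPM, whereas 28 were among the 100 highest by TPM, as were 8 rows shorter than 200 bases. Long genes lost most ranks. Ankrd17, with 35531 bases of exon, was at rank 160 by CPM and 5759 by TPM, and Syne2, which links the nucleus to the cytoskeleton, at ranks 254 and 5137. Atr, a kinase that signals DNA damage, moved from rank 267 to 4717.

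Protein-coding nuclear genes held 94.1% ± 0.24 (SD, n = 3) of counts but 77.0% ± 0.58 of TPM. Processed pseudogenes, intronless copies of mRNAs, held 2.62% ± 0.051 of counts and 13.5% ± 0.26 of TPM. The 13 mitochondrial mRNAs held 1.41%, 1.74% and 1.63% of counts in replicates 1, 2 and 3, and replicate 1 was the lowest. Long noncoding RNAs held 1.33% ± 0.054 of counts, and Gm42418 alone made up 0.7155% of counts within this class. Mitochondrial rRNA held 0.0707% ± 0.0071 and nuclear rRNA rows 0.00738% ± 0.0013, which does not include Gm42418.

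**Figure D1:**
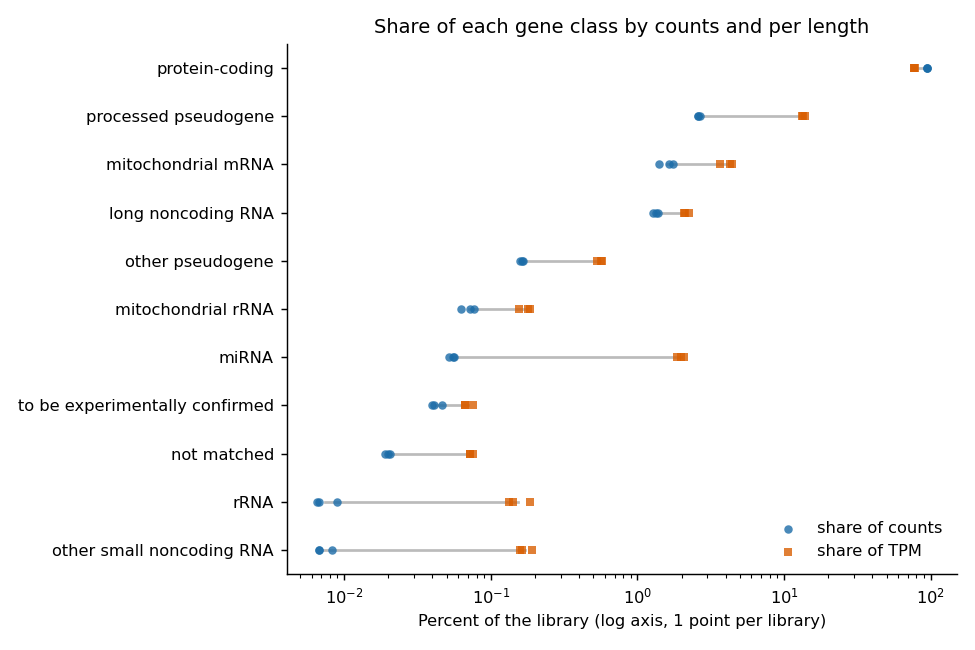
Share of each gene class in each wild-type library (log axis, percent), by counts (blue circles) and by TPM (orange squares), with 1 point per library and a grey line between the means. Processed pseudogenes go from 2.62% of counts to 13.5% of TPM and miRNA rows from 0.0545% to 1.98%, while protein-coding genes go from 94.1% to 77.0%.

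The miRNA class shows how length sets a TPM rank. Its share of counts was 0.0545% and its share of TPM 1.98%, and Mir6236 and Gm23935 made up most of it. Their sequences are shown because these short rows rank among the 5 highest by TPM. The first is the mature miRNA in RefSeq (GRCm38.p6, chr9:110281353-110281371, plus strand), with the seed, bases 2 to 8, in capitals. The second is the whole transcript of Gm23935 in GENCODE M21 (chr16:11144125-11144181, plus strand), all in lower case.
mmu-miR-6236: gCCGUCGCcggcagucagg
Gm23935: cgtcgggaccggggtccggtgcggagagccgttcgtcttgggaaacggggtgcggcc
Mir6236, counted over 123 bases, had 7699, 7290 and 7240 counts and ranked 339 by CPM but 4 by TPM. Gm23935, 57 bases long, had 3388, 3307 and 3562 counts and ranked 1553 by CPM and 5 by TPM. Gm24270 on chromosome 9 has the same 57 bases in the annotation and had only 13, 15 and 21 counts. Mature miRNAs are shorter than the reads such libraries usually keep, so these counts are levels of the annotated row and not of the mature miRNA.

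Pseudogene rows were compared with mRNAs by the 31-base words of their annotated transcripts, read on the same strand. Of 1581 pseudogene rows with a mean CPM of 1 or more, 331 had at least 80% of their words in protein-coding transcripts, and 34 had none. Of 312 of these rows that shared at least 80% with 1 gene, 235 (75.3%) had a higher mean TPM than that gene. The limit of 1 CPM was set on the pseudogene rows and not on the genes. This share therefore favours high pseudogene rows and does not describe pseudogene rows in general. Gm14303, a 171-base row on chromosome 2, had 4224, 4640 and 4072 TPM, while Rps29, a ribosomal protein gene in which all of its words are found, had 30.2, 32.1 and 29.2. Eif4a-ps4 had 1144, 1173 and 1170 TPM and its closest gene Eif4a1, a translation initiation helicase, 108, 113 and 99.5. Tpt1-ps3 had 1245, 1580 and 1546 TPM and Tpt1 51.1, 67.3 and 57.9.

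Levels of genes with such copies are therefore uncertain in these counts, and how reads were shared between a gene and its copies was not tested. Gapdh, a glycolytic enzyme usually among the most abundant mRNAs, had 3.88 TPM on average, Pgk1 had 6.72 and Rpl10 had 9.28. No pseudogene row of at least 1 CPM was matched to Gapdh, whereas Pgk1 had 2 such rows and Rpl10 had 1. The 80 cytosolic ribosomal protein genes held 0.748%, 0.837% and 0.772% of counts. Adding the 166 pseudogene rows closest to them gave 1.27%, 1.44% and 1.33%. For Eef1a1 the sum with 6 pseudogene rows was 2124 CPM against 1577 for the gene alone. Hnrnpk, with 1 such row, rose from rank 312 to rank 54 by CPM when it was added.

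The 21 gene lists for germ cell stages, somatic cells and other gene classes were set beside the median of all 13878 protein-coding genes with a mean of at least 1 TPM, which was 26.2 TPM. Sertoli cell genes had the highest median, 243.9 TPM, above 96.7% of those genes. The chromosome axis and synaptonemal complex came next with 120.9, then interstitial stroma (94.95), differentiating spermatogonia (89.3), meiotic entry (88.7), cell proliferation (84.2) and germ cell identity (75.3). Spermatid genes were at the other end with 0.056 TPM. In all, 12 of the 21 lists had a median above 26.2 TPM.

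**Figure D2:**
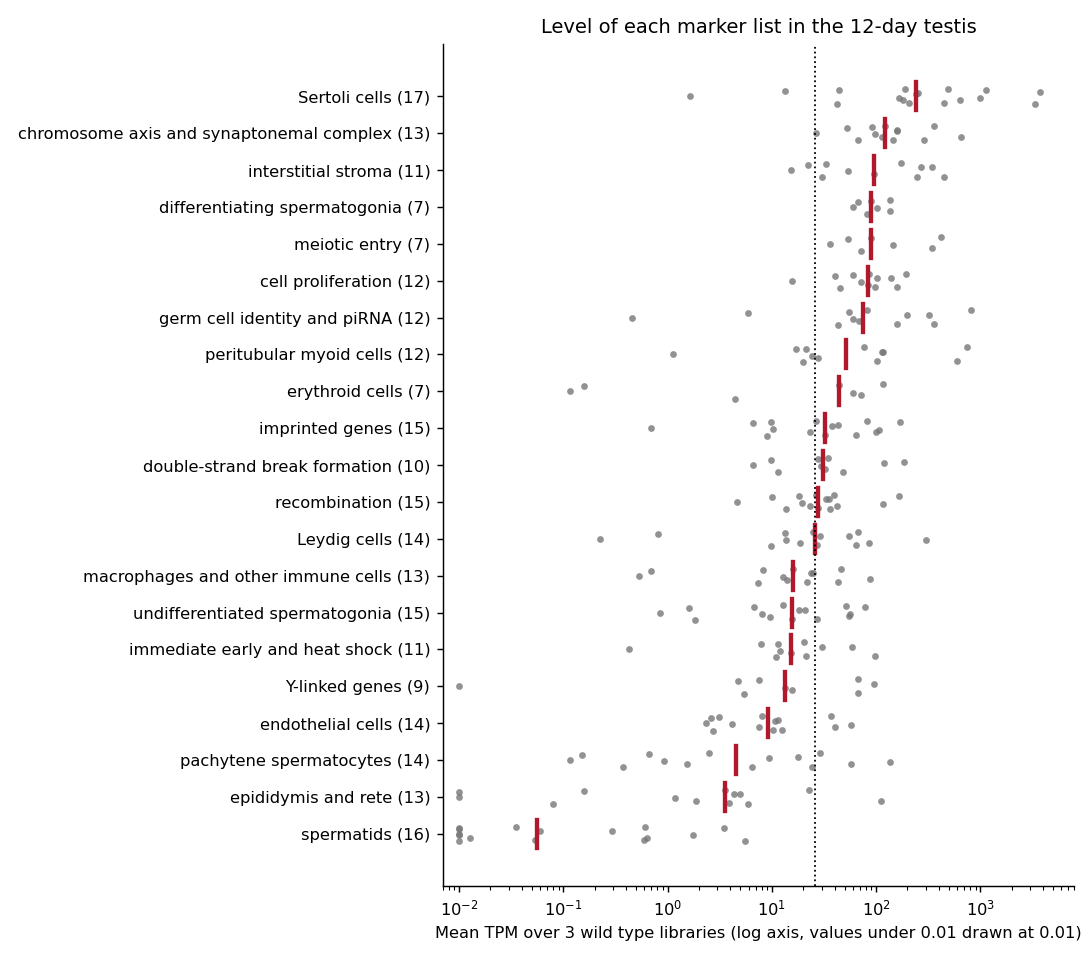
Mean TPM over the 3 wild-type libraries (log axis) of each member of the 21 marker lists (grey points), with the list median as a red bar and the number of members in brackets. The dotted line is the median of expressed protein-coding genes, 26.2 TPM, and the lists run from spermatids at 0.056 to Sertoli cells at 243.9.

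All 17 Sertoli cell genes reached 1 TPM in every library. Clu had 3889, 3852 and 3565 TPM and Aard 3107, 3621 and 3319 TPM. Cldn11, a tight junction protein of the blood-testis barrier, had 1222, 1105 and 1105 TPM. These abundant members were close to each other in the 3 libraries. Hormone genes varied more: Inha, the inhibin alpha subunit, had 991.0, 1197 and 797.7 TPM, and Amh, anti-Müllerian hormone, 425.2, 640.4 and 388.5. Both were highest in replicate 2, as were 12 of the 17 members. Over all 16153 genes with a mean of at least 1 CPM, replicate 2 was highest for 5350. The regulators Sox9 (182 ± 15.0 TPM, SD, n = 3) and Wt1 (166 ± 4.98) were steadier. Fshr, the receptor for follicle-stimulating hormone, had 43.9 ± 3.21 TPM, and Gdnf, a growth factor for spermatogonial stem cells, 13.5 ± 2.95. Tsx, an X-linked gene, was the most variable, at 70.9, 25.0 and 31.9 TPM with replicate 1 highest. Trf, transferrin, was lowest at 1.66 TPM on average.

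Of the 14 Leydig cell genes, 12 reached 1 TPM in every library, and the median was 25.95 TPM. Hsd3b1, which makes progesterone and androstenedione, was the highest with 238.0, 309.2 and 363.7 TPM. Scarb1, a receptor that takes up cholesterol from lipoproteins, had 91.3, 87.3 and 80.7 TPM, and Hsd17b3, the testicular enzyme that makes testosterone, had 49.4, 89.7 and 62.3. Hsd3b6, a relative of Hsd3b1 linked to adult Leydig cells, had 24.9, 6.28 and 8.73 TPM, and replicate 1 was the highest. The 2 genes are similar in sequence, so reads may be shared between them. Ptgds, a prostaglandin D synthase, had 5.15, 8.48 and 16.0 TPM. Mc2r, the adrenocorticotropin receptor, stayed under 1 CPM in every library. The median of the list moved by 0.05 on the log2 scale between libraries, but by 0.13 with no filter on low counts, 0.09 without replicate 1 and 0.17 without replicate 2. Of its 13 members at 1 CPM or more, 8 had a ratio of 1.5 or more between the highest and the lowest library. Over all genes with a mean of at least 1 CPM, 13.2% had such a ratio.

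Peritubular myoid genes were led by Acta2, smooth muscle actin, with 710.2, 778.5 and 760.4 TPM, and by the myosin light chain gene Myl9 with 538.1, 639.8 and 604.9. Myh11, smooth muscle myosin, had 110, 118 and 121 TPM. All 12 had at least 1 CPM on average and their median coefficient of variation was 6.8%, beside 6.48% for all genes at 30 to 100 CPM and 5.65% at 100 to 300 CPM. Interstitial stroma was led by Dcn, the proteoglycan decorin, with 411.4, 425.5 and 508.4 TPM and by the collagen genes Col3a1 and Col1a1 with means of 342 and 271. Lum, another proteoglycan, was the most variable of these at 10.3, 12.1 and 23.1 TPM. Endothelial genes had a low median of 9.14 TPM, with Cdh5, the vascular cadherin, highest at 50.3, 56.4 and 64.4.

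Macrophage and other immune genes had a median of 15.9 TPM, and all 13 were highest in replicate 3. Over all 16153 genes with a mean of at least 1 CPM, replicate 3 was highest for 4992. Lyz2, lysozyme, had 91.0, 65.7 and 105.8 TPM, and the complement gene C1qb had 46.9, 39.3 and 51.1. Cd163, a scavenger receptor of tissue macrophages, had the widest ratio with 0.751, 0.333 and 0.989 TPM. The globin genes, which mark red blood cells, were highest in replicate 2: Hbb-bs had 96.1, 152.9 and 102.3 TPM. All 5 erythroid genes at 1 CPM or more were highest in that library, as were 5350 of all 16153 genes at this level. Slc4a1 was under 1 CPM in all 3 libraries. Hba-a1 and Hba-a2 are near-identical copies, so their separate levels are uncertain.

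Germ cell identity was plain in all 3 libraries. Dazl, an RNA-binding protein of germ cells, had 911.5, 682.5 and 836.2 TPM, and Ddx4, the germ cell RNA helicase, 354.3, 270.1 and 342.7. Mael, which acts in piRNA silencing of transposons, had 390.1, 329.6 and 359.8 TPM. Of the 12 genes of this list, 11 reached 1 TPM in every library. Tdrd6, a component of the chromatoid body of later germ cells, was the exception at 0.705, 0.257 and 0.393 TPM.

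Genes of undifferentiated spermatogonia were low, with a median of 15.8 TPM, above only 36.9% of expressed protein-coding genes. Lin28a, an RNA-binding protein of progenitors, was highest with 65.5, 79.5 and 87.6 TPM, and Zbtb16 had 48.3, 58.2 and 61.2. The stem cell receptor genes Ret and Gfra1 had 18.2 ± 2.43 and 12.9 ± 2.09 TPM (SD, n = 3). Nanos2 had the largest ratio, at 1.12, 1.70 and 2.67 TPM. Differentiating spermatogonia were represented by Sohlh1 with 126, 139 and 147 TPM, Rhox13 with 158, 119 and 131, and Kit, the receptor for stem cell factor, with 66.0, 64.4 and 70.4. The summed TPM of this list was 675.0, 672.9 and 677.0, and the median coefficient of variation of its members was 9.6%.

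All 7 genes of the meiotic entry list reached 1 TPM in every library. Stra8, the retinoic acid target that starts meiosis, had 359, 316 and 348 TPM. Dmrt1, a regulator shared by Sertoli cells and spermatogonia, had 396, 455 and 409, so its level does not mark meiotic entry alone. It was the only 1 of the 7 that was highest in replicate 2. Meioc, needed for an extended meiotic prophase, had 178, 104 and 150 TPM, and replicate 2 was the lowest. Gm4969, the gene of the Stra8 partner MEIOSIN, had 88.6, 53.8 and 72.3 TPM.

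Genes for break formation had a median of 31.2 TPM, and all 10 reached 1 TPM in each library. Ankrd31, at chr13:96748272-96910039 (plus strand), had 44.3, 26.8 and 33.2 TPM, equal to 1876, 1189 and 1336 counts. In CPM, its level in replicate 1 was 1.63 times that in replicate 2. Hells, a chromatin remodeller that works with PRDM9, was the highest with 198, 173 and 189 TPM, followed by Zcwpw1, a reader of PRDM9 marks, with 138, 98.1 and 121. Spo11, whose product cuts the DNA, was low and variable at 16.0, 5.70 and 7.99 TPM, and Mei4, a break-forming factor, was the lowest at 6.40, 6.34 and 7.04.

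The chromosome axis and synaptonemal complex genes were among the most abundant of the germline. Sycp3, an axis protein, had 937.1, 442.5 and 581.6 TPM, Sycp1, the transverse filament, 477.3, 264.1 and 337.8, and the cohesin gene Smc1b 338.8, 236.7 and 290.8. In each, replicate 1 was the highest and replicate 2 the lowest. Over all 16153 genes with a mean of at least 1 CPM, replicate 1 was the highest for 5811. In this list it was the highest for 12 of the 13 members, the exception being Rad21l with 73.8, 47.4 and 79.6 TPM. The widest ratio was that of Hormad1, an axis protein removed at synapsis, with 171.8, 67.2 and 99.4 TPM. The summed TPM of the list was 3060, 1737 and 2214.

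Because these genes varied together, their promoters in RefSeq (GRCm38.p6) were searched for a few motifs, each on both strands of the 250 bases before and 50 bases after a start site. All 13 axis genes matched. The palindrome CACGTG, an E-box bound by many helix-loop-helix factors, was found for 7 of the 13, against 2187 of 27025 genes in the table (8.09%) and 11.7% of expressed protein-coding genes. It was found for 6 of 10 germ cell identity genes, 1 of 11 recombination genes, 3 of 9 pachytene genes, 1 of 8 break-formation genes, 1 of 10 Sertoli cell genes and none of 9 peritubular myoid genes. The E2F-type motif TCCCGC was found for 9 of 11 recombination genes, 7 of 13 axis genes, 6 of 10 cell proliferation genes and none of 9 pachytene genes, against 5959 of the 27025 genes and 39.7% of expressed ones. TGACGTCA, the full cyclic AMP response element, was found for none of the axis genes (2.03% of all genes), and AACNGTT, a MYB-type motif, for 1 (5.01%). A match is a description of the sequence and not a bound site. The 250 bases before the start are printed for the 3 most abundant axis genes with an upstream CACGTG, which is in capitals, on the strand of the gene: Sycp3 at chr10:88459337-88459586 (plus strand), Sycp1 at chr3:102936101-102936350 (minus strand) and the cohesin gene Stag3 at chr5:138280259-138280508 (plus strand).
Sycp3: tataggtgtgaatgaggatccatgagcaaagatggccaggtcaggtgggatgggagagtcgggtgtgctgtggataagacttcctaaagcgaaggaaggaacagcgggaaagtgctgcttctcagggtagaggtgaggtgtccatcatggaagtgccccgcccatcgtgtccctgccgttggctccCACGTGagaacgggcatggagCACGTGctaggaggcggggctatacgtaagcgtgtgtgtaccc
Sycp1: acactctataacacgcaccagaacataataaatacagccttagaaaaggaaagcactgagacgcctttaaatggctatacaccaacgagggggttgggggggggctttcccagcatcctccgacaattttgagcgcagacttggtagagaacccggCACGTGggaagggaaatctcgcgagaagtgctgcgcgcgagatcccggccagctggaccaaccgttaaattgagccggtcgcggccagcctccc
Stag3: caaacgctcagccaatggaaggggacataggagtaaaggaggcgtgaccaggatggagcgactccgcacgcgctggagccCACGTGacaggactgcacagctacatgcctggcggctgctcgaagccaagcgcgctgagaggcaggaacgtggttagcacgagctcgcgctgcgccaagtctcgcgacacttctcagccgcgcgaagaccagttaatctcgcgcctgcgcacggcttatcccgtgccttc
Sycp3 holds the motif at 2 places, the nearer one beginning 43 bases before the start site, and the distances for Sycp1 and Stag3 are 94 and 170 bases.

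Recombination genes had a median of 27.5 TPM, close to that of all expressed protein-coding genes, and 15 of the 16 listed genes had a row. Tex11, an X-linked gene of crossover formation, was the highest with 177.5, 146.1 and 174.9 TPM, and Dmc1, the meiotic strand exchange protein, had 148.1, 92.2 and 107.6. Meiob, which binds single-stranded DNA, varied most with 68.5, 17.4 and 32.2 TPM, and Hfm1, a helicase of the crossover pathway, had 55.6, 21.9 and 31.7. Replicate 1 was the highest for 14 of the 15, beside 5811 of all 16153 genes with a mean of at least 1 CPM.

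Genes of pachytene spermatocytes had a median of only 4.49 TPM, and 8 of 14 reached 1 CPM on average. All 8 were highest in replicate 1, as were 5811 of all 16153 genes at this level. The limit of 1 CPM was on the mean, so a gene high in replicate 1 alone could reach it. The 8 of 8 therefore depends in part on the limit. Ccna1, not among the 8, had 1.28, 1.22 and 2.10 TPM and was highest in replicate 3. The median of the list was 1.65 TPM without replicate 1. Hspa2, a chaperone of spermatocytes, had 203, 94.7 and 108 TPM, Tbpl1, a relative of the TATA-binding protein, 61.0, 53.3 and 58.0, and Mybl1, a transcription factor of pachytene, 39.2, 20.9 and 27.6. Several members were far lower in replicates 2 and 3 than in replicate 1. Ldhc, a lactate dehydrogenase of germ cells, had 16.2, 1.42 and 1.85 TPM, Adam2, a sperm surface protein, 7.12, 0.110 and 0.242, and Crisp2 2.09, 0.153 and 0.507. Hist1h1t, Spata16, Pgk2 and Adam3 were under 1 CPM in every library.

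Spermatid genes were nearly absent. Prm1, Prm2, Prm3, Tnp2 and Catsper1 had no count in any library, and 3 counts, the limit that a count of 0 allows, would be 0.132 to 0.143 CPM in a library. Tnp1, Tssk6, Odf1, Acr, Akap4, Gapdhs, Smcp, Tssk2 and Acrv1 stayed under 1 CPM in all 3. The highest were Spaca1, an acrosome gene, with 6.24, 4.90 and 5.32 TPM, Tnp1, a transition protein, with 4.36, 3.52 and 2.47, and Izumo1, needed for gamete fusion, with 1.81, 1.77 and 1.70.

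Cell proliferation genes were high, with Top2a, a topoisomerase of dividing cells, at 213.0, 166.5 and 203.0 TPM, Mcm5, of the replicative helicase, at 171.4, 149.0 and 157.0, and the spindle checkpoint kinase Bub1 at 163, 111 and 147. Their median coefficient of variation was 7.8%. Immediate early genes had a median of 15.4 TPM, with Jun at 81.8, 109.8 and 104.0, Ier2 at 50.1, 64.7 and 60.5, and Fosb at 0.258, 0.470 and 0.544. Among imprinted genes H19, a noncoding RNA of fetal tissues, was the highest with 96.7, 210.9 and 203.3 TPM and the lowest value in replicate 1. Peg10 had 127.5, 101.4 and 91.3 TPM and Dlk1, a mark of immature interstitial cells, 71.3, 119.5 and 110.5. Mirg was under 1 TPM in every library.

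Sex chromosomes gave a further description of the tissue. Y-linked rows held 0.0473% ± 0.0024 (SD, n = 3) of counts, led by Uba1y with 98.4, 91.1 and 96.3 TPM, Ddx3y with 65.9, 64.4 and 71.4, and Eif2s3y with 74.1, 62.0 and 64.4. Sry had no count in any library. Zfy2, a zinc finger gene needed in meiosis, had the widest ratio with 7.82, 2.52 and 3.97 TPM, and reads of Zfy1 and Zfy2 may be shared between them. The X chromosome held 3.86% ± 0.034 of counts. Of 948 X-linked protein-coding rows, 62.8% had a mean of at least 1 TPM, against 64.4% of 20590 autosomal rows. Among those the median X-linked level was 0.818, 0.778 and 0.814 of the median autosomal one, and the ratio was between 0.744 and 0.904 under other filters and length measures.

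Germline genes were also set beside broadly used relatives of the same family, in 19 pairs that share Stag3 and Rad21. By the gene rows alone, without pseudogene copies, the germline member was higher in all 3 libraries in 10 pairs, and lower in all 3 in the other 9. The meiotic cohesin gene Smc1b was at 4.8 ± 0.92 times the TPM of Smc1a (SD, n = 3), and Stag3 at 2.21 ± 0.35 times Stag1 and 2.34 ± 0.54 times Stag2. Rec8 and Rad21l were at 0.136 ± 0.028 and 0.167 ± 0.046 of Rad21. So the germline subunit was the more abundant transcript in some cohesin positions and the less abundant in others.

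Germ cell versions of general transcription factors were all above their relatives. Taf7l, X-linked, was at 4.25 ± 0.55 times Taf7, Tbpl1 at 4.71 ± 0.17 times Tbp and Taf4b at 2.17 ± 0.24 times Taf4. The autosomal Cstf2t, an RNA-processing factor, was at 1.53 ± 0.082 times its X-linked relative Cstf2. Metabolic pairs were mixed. Cyct, testis cytochrome c, was at 3.65 ± 0.56 times Cycs, while Ldhc was at 0.126 ± 0.17 of Ldha, Pdha2 at 0.350 ± 0.21 of Pdha1, Cox6b2 at 0.116 ± 0.047 of Cox6b1 and Ccna1 at 0.0185 ± 0.0066 of the mitotic cyclin Ccna2. Hspa2 was at 0.638 ± 0.30 of Hspa8, with 1 library close to equality. Pgk2 and Gapdhs had 0 to 3 counts per library. Rpl10l was at 13.0 ± 2.9 times Rpl10 and Rpl39l at 1.83 ± 0.54 times Rpl39, but the levels of Rpl10, Pgk1, Gapdh and other genes with many intronless copies are uncertain, as above. With pseudogene rows of the same gene added, the mean of Pgk1 went from 4.70 to 10.6 CPM, that of Rpl10 from 5.94 to 8.82, that of Rpl39 from 35.6 to 79.0 and that of Hspa8 from 287.1 to 435.7. The ratios and the counts of pairs above use the levels without these rows. For Rpl39 the added rows held 54.9% of the sum. That rise is larger than the 1.83-fold lead of Rpl39l, so the direction of this pair is uncertain. No pseudogene row met the rule for these sums for Gapdh or Cycs, so their levels stayed as they were.

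**Figure D3:**
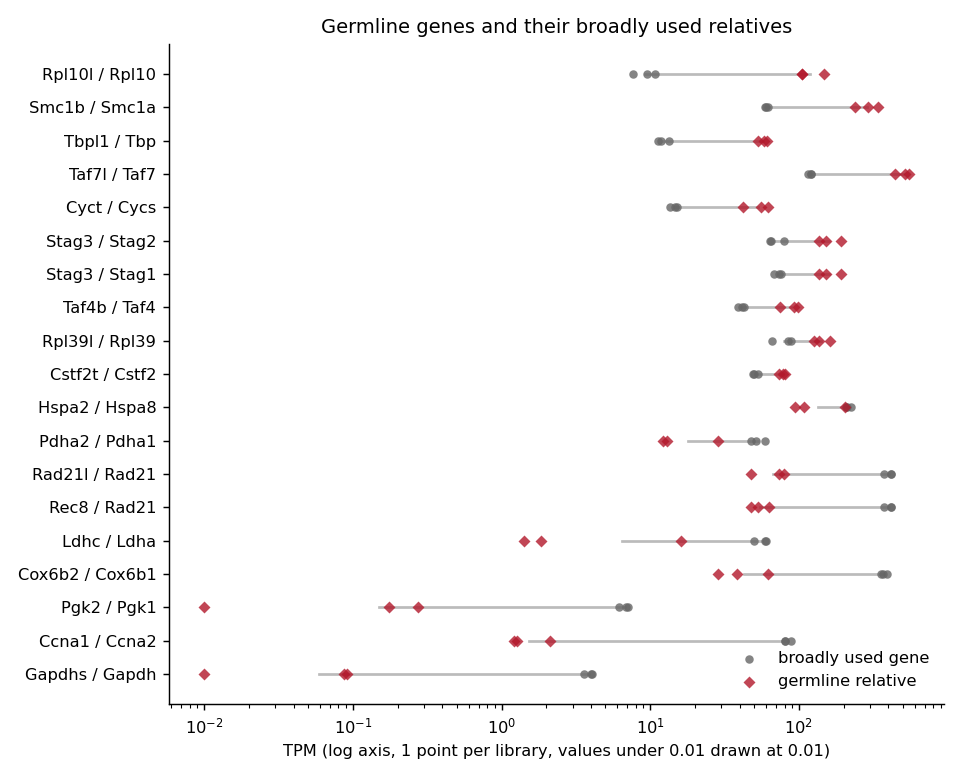
TPM of the germline gene (red diamonds) and of its broadly used relative (grey circles) in 19 pairs, 1 point per library on a log axis, ordered by the ratio and joined by a grey line between the means. The pairs run from Rpl10l at 13.0 times Rpl10 to Gapdhs at 0.0147 of Gapdh, and the meiotic cohesin Smc1b lies at 4.8 times Smc1a.

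Spread between the 3 animals was above counting noise at each level of abundance. The median coefficient of variation of CPM was 8.54% over 16153 genes with a mean of at least 1 CPM, where counting noise alone would give 3.44%. It fell from 19.6% at 1 to 3 CPM (13.6% from counting) to 5.65% at 100 to 300 CPM (1.46%), and was 5.75% at 300 CPM or more (0.875%). The biological coefficient of variation, which edgeR estimates after allowing for counting noise, was 11.2%. It was 8.56% without replicate 1, 11.7% without replicate 2 and 12.8% without replicate 3. In 631 genes (3.91%) the highest library was at least 2 times the lowest.

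**Figure D4:**
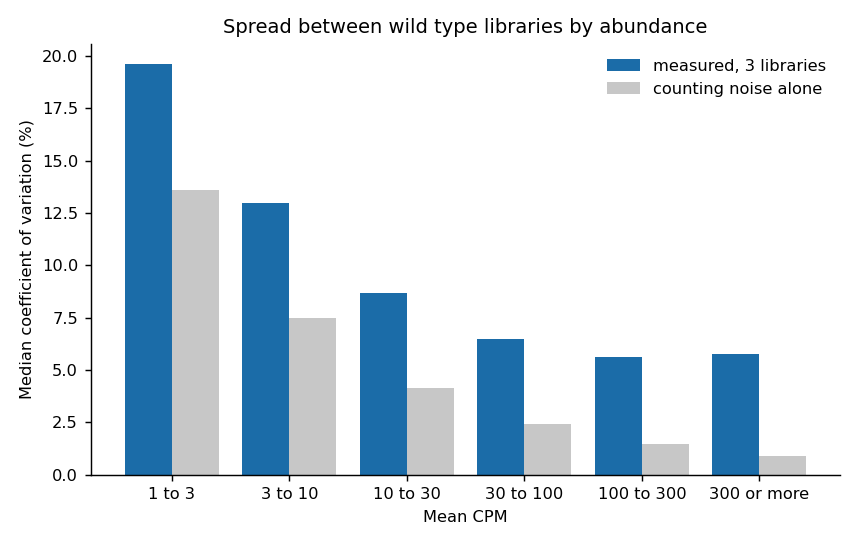
Median coefficient of variation of CPM over the 3 wild-type libraries (blue bars) by mean CPM of the gene, beside the value that counting noise alone gives (grey bars). The measured value falls from 19.6% to 5.75% and the counting part from 13.6% to 0.875%.

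Spearman's rank correlation of CPM across these genes, which are not independent replicates, was 0.991 between replicates 1 and 2, 0.991 between 1 and 3 and 0.994 between 2 and 3. Genes that differed at least 2-fold numbered 391, 363 and 190 for the same pairs. Replicate 1 therefore stood farther from the other 2 than they did from each other. The steadiest genes of at least 50 CPM were Zfand6 with 124.3, 124.5 and 124.3 CPM, Slco3a1, a membrane transporter, with 65.1, 64.9 and 65.1, and Slc29a1, a nucleoside transporter, with 136.8, 137.2 and 136.9.

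The lists separated the libraries in different ways. The median over pachytene genes of log2 CPM over the mean of the 3 libraries was 0.70 in replicate 1, -0.55 in replicate 2 and -0.50 in replicate 3. For axis genes it was 0.32, -0.43 and -0.08 and for recombination genes 0.25, -0.20 and -0.09. Replicate 1 was thus the highest for these lists, but not for the later meiotic lists alone. It was also the highest for break formation (0.21, -0.24 and 0.0), meiotic entry (0.21, -0.23 and 0.02) and germ cell identity (0.11, -0.11 and -0.01). Undifferentiated spermatogonia had -0.19, 0.05 and 0.11, interstitial stroma -0.25, 0.05 and 0.17, and imprinted genes -0.18, 0.21 and 0.10, each lowest in replicate 1. For all genes with at least 1 CPM the median stayed within 0.01 of 0. These medians take members with a mean of at least 1 CPM, which a gene can reach through 1 library alone. Whether germ cell stage, cell numbers or another property of the animals set these deviations was not tested.

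**Figure D5:**
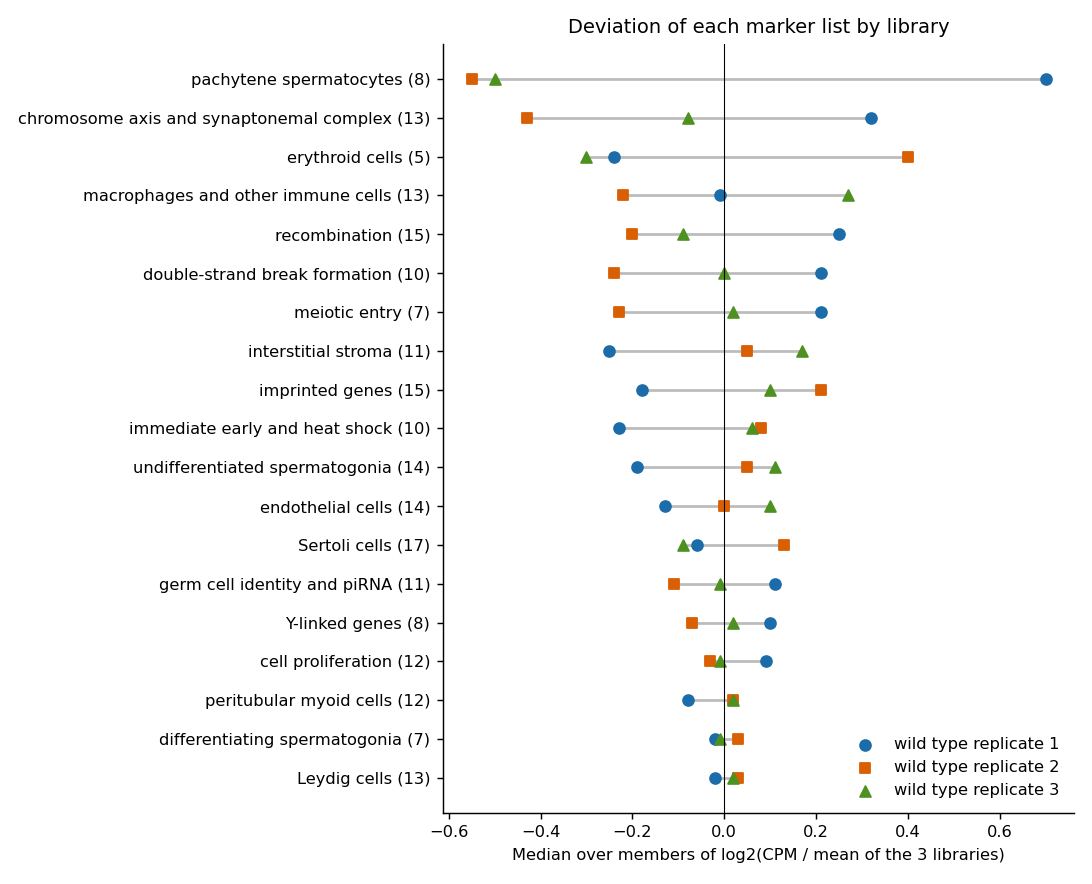
Median over list members of log2 CPM over the mean of the 3 libraries, by wild-type replicate, for 19 lists ordered by the range between libraries, with the number of members of at least 1 CPM in brackets. Pachytene genes lie at 0.70 in replicate 1 against -0.55 and -0.50. The epididymis and rete list, with a range of 4.14, and the spermatid list, with 2 members at this level, are left out.

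Single genes were also compared between libraries. Of 12684 genes with a mean of at least 5 CPM, 53 (0.418%) were at least 2 times as high in replicate 1 as in the mean of the other 2, 4 (0.0315%) in replicate 2 and 22 (0.173%) in replicate 3. In the other direction, 29 (0.229%) were lower by at least 2 times in replicate 1, 40 (0.315%) in replicate 2 and 12 (0.0946%) in replicate 3. Of the 53, 8 belonged to the meiotic lists, namely Spo11, Hormad1, Meiob, Msh4, Hfm1, Piwil1, Clgn and Pdha2. The lists for meiotic entry, break formation, axis, recombination and pachytene genes held 7, 10, 13, 15 and 8 members at 1 CPM or more. How many of these reached 5 CPM was not counted, so an exact share beside the 0.418% of all genes is not given. Kctd19 had 29.1, 2.38 and 6.28 CPM, Cers3, a ceramide synthase, 17.3, 1.76 and 3.33, and the noncoding RNA 1700029M20Rik 17.2, 1.98 and 1.95. Ybx2, an mRNA-storing protein of germ cells, had 52.3, 15.5 and 18.7 CPM, and Rsph1, of the axoneme, 61.1, 12.5 and 17.5. In each, replicates 2 and 3 lay closer to each other than to replicate 1.

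In replicate 2, the gene that stood out was Olfr1175-ps, an olfactory receptor row on chromosome 2, with 15, 850 and 12 counts (0.684, 37.4 and 0.571 CPM). Hsd17b1, a steroid enzyme, had 7.24, 21.6 and 9.23 CPM there. In replicate 3 a set of genes of other tissues was high. Crisp1, a secreted protein of the epididymis, had 0, 3 and 628 counts (0, 0.132 and 29.9 CPM), and Spink8 had 0.137, 0 and 23.03 CPM. The epithelial keratin genes Krt8 and Krt18 had 0.162, 1.01 and 10.6 TPM and 0.418, 2.80 and 14.7 TPM. Upk3b, of mesothelium, had 0.273, 0.529 and 15.1 CPM, and the fat cell genes Fabp4 and Car3 had 0.638, 0.573 and 25.2 CPM and 0.0456, 0.264 and 26.3 CPM.

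Of the 13 epididymis and rete genes, 9 had a mean of at least 1 CPM, 8 of them highest in replicate 3. Over all 16153 genes at this level, replicate 3 was highest for 4992. The limit was on the mean, so a gene such as Crisp1, with 0, 3 and 628 counts, reached it through replicate 3 alone. The 8 of 9 is therefore set in part by the limit and cannot be compared with the share over all genes. The summed TPM of the list was 123, 106 and 254, of which Epcam, an adhesion gene that germ cells also express, made up 117, 94.6 and 125. Lcn9 and Rnase10 had no count, and Lcn8 and Ovch2 none outside replicate 3. The median of the list was 3.57 TPM, and 0.436 TPM without replicate 3. The part of these tissues in other values of replicate 3 was not tested. Without it the median level was 255 TPM for Sertoli cell genes, 25.6 for Leydig cell genes, 75.9 for germ cell identity and 127 for axis genes, against 243.9, 25.95, 75.3 and 120.9 with it.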

How the data were processed

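RNA-seq was done on whole testes of 6 mice, of which the 3 wild-type libraries were used; replicates are 3 mice per the design text. The authors deposited a table of raw read counts per gene, and its header also gives a summed exon length per gene. The submitters' processing notes name bcl2fastq 2.19.1, featureCounts 1.6.0, GSNAP 2018-03-11 and the build mm10. How strand and multiply matching reads were handled, which annotation release was used and how RNA was selected is not given in the sources used here; dropping multiply matching reads would lower genes with near-identical copies.

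The 92 spike-in rows (1 count in all) were left out of 49763 rows. Symbols and biotypes were taken from GENCODE M21 for 49412 of 49671 gene rows; the 259 others hold 0.0198% of counts, and 91.5% of matched genes had the same ends. No sample column was left unmapped. CPM used plain library totals and TPM the deposited lengths, in Python 3.11.15 with pandas 2.3.3. Depth was 21014060 to 22706296 counts; a limit for a count of 0 was taken as 3 counts and covers counting error only. The biological coefficient of variation came from edgeR 4.0.16 (R 4.3.3, TMM, filterByExpr, intercept only), tested on simulated counts. DESeq2 1.42.0 size factors, other filters and lengths, and leaving out each library were alternatives. No test between groups was made. Shared 31-base words were counted in GENCODE M21 transcripts on the same strand; promoters and the miRNA came from RefSeq (GRCm38.p6).

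The members, the 21 lists and the gene pairs were chosen with earlier results of these data known. Named were Ankrd31, the 20 highest genes by CPM and by TPM, the 3 highest per class, the largest rank changes, per list the 3 highest members, the most variable and those under 1 CPM, the pairs, the 10 genes most apart in each library and the 10 steadiest. Other named genes, the pseudogene pairs and sums, and the motifs were chosen after their values were seen. A few genes with measured values are left out of the text.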

Additional observations from a re-analysis of the deposited data

How the results depend on the processing

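No paired analysis was possible because a single group was described and no test was run. With 3 libraries, groups are too small for an outlier check. The number of genes detected (15567 on TMM library sizes, 16745 by TPM, 22775 with any count), the overlap of the 2 rankings (34 to 37 of 100) and the number of lists above the median of expressed genes (11 to 13 of 21) stayed within 1.5 times under every alternative run. Other values moved by more than the spread between libraries. For the coefficients of variation and the range of the lists, the limit was the spread between the runs with a library left out. The 100 highest genes held 18.4% of TPM, and 9.34% of counts without mitochondrial genes. Protein-coding nuclear genes held 77.0% of TPM, and 95.7% of counts without mitochondrial genes. The X to autosome ratio was 0.874 over genes with any count, 0.904 at 10 TPM or more and 0.744 with the longest transcript as length. The median coefficient of variation was 12.1% with no filter and 6.77% at 10 CPM or more. With a library left out it was 6.18% to 7.60%, and the biological coefficient of variation was 8.56% to 12.8%. Of the latter, only the 8.56% without replicate 1 went past the limit. The median range of the lists was then 0.144 to 0.239 in place of 0.310 on the log2 scale. A range over 2 libraries is in general smaller than a range over 3, so these are not like measures. The cause of the other shifts was not tested. With pseudogene rows added to the closest gene, an alternative chosen after seeing the data, ribosomal protein genes held 1.35% of counts in place of 0.786%. Depth limits statements on low genes: counting noise alone gave a coefficient of variation of 13.6% at 1 to 3 CPM, and it was not computed under 1 CPM.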

Other observations

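Genes outside the marker lists that were at least 2 times as high in replicate 1 as in the mean of the other 2 libraries include several with known roles in spermatocytes, and they were picked here after their values were seen. Brdt, a testis bromodomain protein that binds acetylated histones, had 76.6, 29.9 and 39.3 CPM in replicates 1, 2 and 3. Zfp541, a zinc finger protein of spermatocytes, had 62.8, 24.2 and 36.4 CPM. Tesmin, a metallothionein-like protein of the testis, had 83.4, 24.5 and 29.4 CPM. Cntd1, which acts in crossover maturation, had 32.5, 6.96 and 10.8 CPM. Replicate 2 was the lowest for each of these 4 genes, and replicate 1 stood above both others.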
